A study of Mus musculus with 8 samples.

Results

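Actin and tropomyosin build the thin filaments of muscle, and the 10 genes described here are the mouse genes that encode these 2 proteins: the actin genes Acta1, Actc1, Acta2, Actg2, Actb and Actg1, and the tropomyosin genes Tpm1, Tpm2, Tpm3 and Tpm4. They were found by their symbols among the 22880 Ensembl gene IDs of the count tables, and all 10 were present and passed the filter on low counts. RNA was sequenced from soleus, a postural calf muscle that holds slow and fast fibres, of 8 male mice at 2 months of age. Their background is given as C57BL/6 in the labels and as C57bl/6 J in the methods. The 4 control mice were Dnm2 +/+, and the 4 Dnm2 wt/K562E mice were heterozygous for the K562E mutation, which was placed in the endogenous Dnm2 locus and is therefore present in every cell of the animal. Dnm2 encodes dynamin 2, a GTPase that cuts membrane vesicles free and also binds actin. The mutation is one found in patients with a dominant Charcot-Marie-Tooth neuropathy, and the study asked which transcripts differ in the muscle of the mutant mice.

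An actin filament is a double-stranded polymer of actin, and tropomyosin lies along it as a coiled coil that controls which proteins reach it. In the sarcomere, the contractile unit of skeletal and heart muscle, troponin and calcium move tropomyosin aside so that myosin can pull. Adult skeletal fibres use skeletal actin (Acta1), the heart and the developing fibre also use cardiac actin (Actc1), vessel walls and myofibroblasts use smooth muscle actins (Acta2, Actg2), and every cell has cytoplasmic actins (Actb, Actg1). Tpm1 and Tpm2 encode the main striated muscle tropomyosins, Tpm3 encodes the tropomyosin of slow fibres, and Tpm4 is mainly known for cytoplasmic forms. By alternative promoters and splicing, Tpm1, Tpm2 and Tpm3 also give forms found outside the sarcomere. Mutations of ACTA1, TPM2 and TPM3 cause congenital myopathies in humans.

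The actin genes are alike in sequence, so how well short reads can be assigned was checked from the sequence itself. Over aligned coding sequences, any pair of the 6 was identical at 81.5% to 88.7% of bases, with Actb and Actg1 the closest pair and Acta1 and Actc1 at 86.2%. The first 30 coding bases of each gene are shown here from the GRCm38 genome and GENCODE M21, with the start codon in capitals, since actins are known to differ most between isoforms at the start of the protein.
Acta1: ATGtgcgacgaagacgagaccaccgctctt
Actc1: ATGtgtgacgacgaggagaccaccgctttg
Acta2: ATGtgtgaagaggaagacagcacagccctg
Actg2: ATGtgtgaagaagagaccaccgcccttgtg
Actb: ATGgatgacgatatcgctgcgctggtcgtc
Actg1: ATGgaagaagaaatcgccgcactcgtcatt
All 6 lie on the minus strand, at chr8:123893668-123893697, chr2:114052002-114052031, chr19:34252524-34252553, chr6:83527412-83527441, chr5:142905657-142905686 and chr11:120348062-120348091, in the order shown. In the transcripts as a whole, including their untranslated ends, no stretch as long as a sequencing read of Acta1, Actc1, Acta2, Actg2, Actb, Tpm1 or Tpm2 occurred in another annotated gene. Such stretches made up 23.3% of Actg1, 10.2% of Tpm3 (shared with the copy Tpm3-rs7) and 5.07% of Tpm4, so that the counts of these 3 genes are less certain. The 4 tropomyosin genes lie at chr9:67022590-67049406 (Tpm1) and chr4:43514711-43523765 (Tpm2) on the minus strand and at chr3:90072649-90100902 (Tpm3) and chr8:72134975-72153142 (Tpm4) on the plus strand. Each gene has more than 1 annotated transcript, 21 for Tpm1 and 16 for Tpm3, and the counts add them together. The muscle and nonmuscle forms made by 1 tropomyosin gene were therefore not told apart.

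Actin genes are known targets of serum response factor (SRF), which binds the CArG box. RefSeq promoter windows (GRCm38.p6, from 250 bases before the start of transcription to 50 bases after it) were at hand for 8 of the 10 genes, with none for Actg2 and Actb. A CArG box, searched on both strands by its exact 10-letter pattern CCWWWWWWGG (W is A or T), was present in the windows of Acta1, Actc1 and Actg1. This exact pattern was absent from the windows of Acta2, Tpm1, Tpm2, Tpm3 and Tpm4, and 1.63% of all 32851 windows held it. The Acta2 window held ccctatatgg and ccttgtttgg, each a single letter off the pattern. Such forms were also present elsewhere, as ccaaaaaagt in the Tpm1 window and cctttactgg in a Tpm3 window. These looser forms were not searched for across the windows, so the absence holds for the exact pattern only. The 120 bases before the start are shown for Acta1, Actc1 and Actg1 because they hold the exact box, which is in capitals.
Acta1: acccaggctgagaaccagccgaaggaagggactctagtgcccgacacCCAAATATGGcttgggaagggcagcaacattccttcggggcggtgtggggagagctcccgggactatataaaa
Actc1: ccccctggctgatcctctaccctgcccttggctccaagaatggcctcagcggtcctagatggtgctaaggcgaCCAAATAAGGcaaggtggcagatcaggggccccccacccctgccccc
Actg1: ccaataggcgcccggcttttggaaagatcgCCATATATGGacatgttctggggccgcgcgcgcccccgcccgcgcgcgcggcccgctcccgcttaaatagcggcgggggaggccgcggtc
These run along the minus strand at chr8:123894776-123894895, chr2:114052876-114052995 and chr11:120348496-120348615. The box began 73, 47 and 90 bases before the start, respectively. In the counts described below, Acta1 passed the test in the lower direction, and Actc1 and Actg1 did not pass it.

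The libraries held 33407430 to 48832814 counts per mouse, and any 2 mice of 1 genotype differed by more than sampling noise (chi-square per degree of freedom of at least 12.9). Levels are given as normalized CPM, which are CPM scaled by the TMM factors of edgeR (factors set by genes that differ little between libraries), with mean ± SD over 4 mice. Dnm2 itself, whose counts add both alleles and so cannot show the mutation, was at 66.3 ± 4.74 normalized CPM in controls and 73.4 ± 2.43 in mutants (log2 fold change 0.15, adjusted p = 0.0909 in edgeR's quasi-likelihood test). Control 4 stood apart in Myh4, the myosin of the fastest fibres, with 3134 normalized CPM against 162.8 to 426.4 in the other controls and 34.0 to 50.9 in the mutants. It also had the highest summed macrophage markers among the controls, at 114.3 normalized CPM against 61.8 to 65.4. Results without this mouse are given below beside the members that passed the test.

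The sarcomeric genes of the adult fibre were lower in Dnm2 wt/K562E soleus and so were the smooth muscle actins, whereas the cytoplasmic actins, Tpm4 and cardiac actin were not. Acta1, Tpm1, Tpm2, Tpm3, Acta2 and Actg2 had every mutant mouse below every control mouse, and the other 4 genes overlapped between the genotypes. Of all 14001 genes tested, 20.5% were without overlap in the lower direction and 20.6% in the higher one. The same 6 genes were lower at an adjusted p under 0.05 and none was higher, against 21.7% lower and 22.2% higher among all genes. When the study's second threshold was added, an absolute log2 fold change of 0.58 or more, 3 members were lower (Acta2, Actg2 and Tpm2) and 0 were higher. At an unadjusted p under 0.05, 1 member was higher (Actc1), and with DESeq2 or edgeR's exact test 0 passed both thresholds in that direction. The background for these calls was 7.85% of genes lower (1099) and 12.9% higher (1806) by the quasi-likelihood test. The median log2 fold change was -0.38 over the 10 members and 0.01 over all genes tested. Scaling by library size alone moved the latter to 0.22 and the calls to 564 lower and 2865 higher genes, so each value below is relative to the TMM scale.

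**Figure D1:**
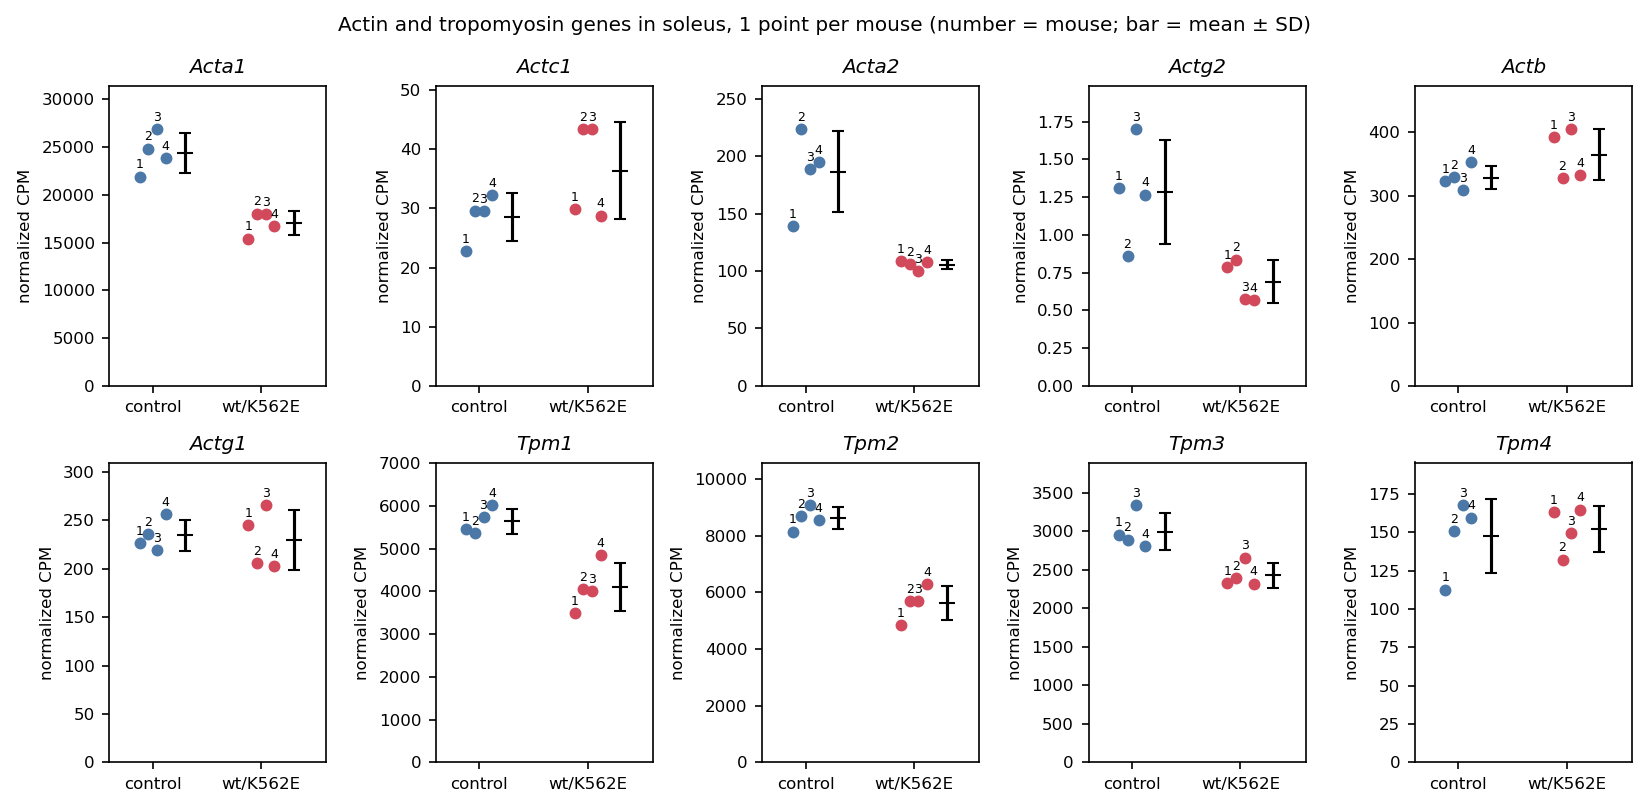
Normalized CPM (y axis, linear from 0, a separate scale for each gene) of the 10 genes in 4 control and 4 Dnm2 wt/K562E mice. Points are mice, numbered by mouse, and bars give the mean ± SD. Acta1, Acta2, Actg2, Tpm1, Tpm2 and Tpm3 show no overlap between the genotypes.

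Skeletal actin, the actin of the adult fibre's thin filament, was by far the most abundant of the 10. Acta1 was measured at 21903, 24817, 26906 and 23806 normalized CPM in controls 1 to 4 and at 15401, 18044, 17954 and 16722 in mutants 1 to 4. The highest mutant thus lay below the lowest control. The mean was 24358 ± 2085 in controls and 17030 ± 1242 in mutants, a log2 fold change of -0.52 (SE 0.09, adjusted p = 0.00097 in edgeR's quasi-likelihood test). This passed the test but not the fold threshold, with mutant soleus at 0.699 of the control level. Of all counts in a library, Acta1 took 2.02% to 2.46% in controls and 1.70% to 1.99% in mutants.

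Cardiac actin, the sarcomeric actin of the heart and of developing skeletal fibres, did not follow Acta1. Actc1 stood at 22.7, 29.6, 29.5 and 32.3 normalized CPM in controls 1 to 4 and at 29.8, 43.4, 43.4 and 28.8 in mutants 1 to 4. Mutants 2 and 3 lay above all controls, whereas mutants 1 and 4 lay within the control range. The log2 fold change was 0.35 (SE 0.16) and did not pass the test (adjusted p = 0.0902 in edgeR's quasi-likelihood test). Without mutant 4, it was 0.45 with an adjusted p of 0.0398 in the same test, still under the fold threshold. The summed markers of developing or regenerating fibres (Myh3, Myh8, Myl4, Myog and Mymk) ran from 55.0 to 65.0 normalized CPM in controls and from 537 to 803 in mutants, with 3 of the 5 past both thresholds and none lower. The order of the mutant mice was not the same: mutant 1 had the highest marker sum and mutant 3 the lowest, while mutants 2 and 3 had the most Actc1. Their part in the Actc1 levels was not tested. Of the heart markers, Nppa had at most 6 counts and Myl7 at most 1 in any mouse, and Myh6, also present in some skeletal fibres, was at 55.7 to 59.9 normalized CPM in controls and 42.6 to 55.4 in mutants.

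The smooth muscle actins had the largest fold changes of the 10 genes. Acta2, the actin of vessel walls, pericytes and myofibroblasts, was at 138.8, 223.7, 188.4 and 194.8 normalized CPM in controls 1 to 4 and at 108.5, 106.0, 100.01 and 107.8 in mutants 1 to 4. The controls spread widely and the mutants lay close together, with an SD of 35.3 against 3.86. The means were 186.4 and 105.6, and the log2 fold change was -0.82 (SE 0.12, adjusted p = 2.57e-04 in edgeR's quasi-likelihood test). Actg2, the enteric smooth muscle actin, was barely present at 29 to 76 raw counts in controls and 21 to 36 in mutants. Its normalized CPM were 1.31, 0.861, 1.70 and 1.27 in controls 1 to 4 and 0.788, 0.837, 0.572 and 0.568 in mutants 1 to 4. Control 2 and mutant 2 all but met, at 0.861 and 0.837. Actg2 passed both thresholds at a log2 fold change of -0.90 (SE 0.29, adjusted p = 0.0264 in edgeR's quasi-likelihood test), but lost the call without control 3, without mutant 3 or without mutant 4 (adjusted p = 0.0758, 0.0744 and 0.0679).

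Other smooth muscle genes moved with these actins. The summed level of Myh11, Smtn and Lmod1, which mark smooth muscle, was 281.9 to 337.6 normalized CPM in controls and 190.7 to 210.8 in mutants, and all 3 passed the test in the lower direction. Myh11, the smooth muscle myosin and the one of them past both thresholds, had a log2 fold change of -0.63 (SE 0.09, adjusted p = 2.24e-04 in edgeR's quasi-likelihood test). The endothelial sum was also lower in every mutant, at 0.759 of the control mean, and all 5 of its genes passed the test in the lower direction. The pericyte sum was at 0.822 of the control mean, but its genes went both ways: Rgs5, which made up most of it at 1098 normalized CPM in controls and 861.7 in mutants, was lower with Notch3 and Kcnj8, and Cspg4 was higher (log2 fold change 0.56, adjusted p = 0.0141 in edgeR's quasi-likelihood test). The myofibroblast sum (Postn, Fn1 and Cthrc1), in contrast, was 2.91 times the control mean, with all 3 genes past both thresholds in the higher direction, and the fibroblast sum 2.10 times. The part of these cell types in the Acta2 and Actg2 levels was not tested, and in whole muscle fewer cells of a type and less RNA per cell cannot be told apart.

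The cytoplasmic actins, which form the cortex and stress fibres of every cell type, overlapped between the genotypes. Actb was at 322.9, 329.5, 309.0 and 353.0 normalized CPM in controls 1 to 4 and at 392.2, 327.3, 405.6 and 332.6 in mutants 1 to 4. Mutants 1 and 3 lay above all controls and mutants 2 and 4 among them, and the log2 fold change of 0.15 (SE 0.08) did not pass the test (adjusted p = 0.164 in edgeR's quasi-likelihood test). Without mutant 3 it was 0.094. Actg1 was at 226.8, 235.8, 219.1 and 256.5 in controls 1 to 4 and at 245.0, 206.2, 265.7 and 202.6 in mutants 1 to 4. Mutant 3 was the highest of all mice, control 4 came next and mutant 4 was the lowest, and the log2 fold change was -0.03 (SE 0.09, adjusted p = 0.823 in edgeR's quasi-likelihood test). Relative to library size alone, Actb was higher (log2 fold change 0.36, adjusted p = 0.00647) and the sign of Actg1 turned (0.18, adjusted p = 0.156), where the median of all genes stood at 0.22.

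Among the tropomyosins, the striated muscle genes were lower and Tpm4 was not. Tpm2, the beta tropomyosin and the most abundant of them, was at 8144, 8686, 9069 and 8551 normalized CPM in controls 1 to 4 and at 4834, 5678, 5690 and 6294 in mutants 1 to 4. The groups lay far apart, with means of 8612 ± 382 and 5624 ± 600. Its log2 fold change was -0.61 (SE 0.09, adjusted p = 2.32e-04 in edgeR's quasi-likelihood test). Without mutant 1, the lowest mouse, it was -0.55 and no longer past the fold threshold, with an adjusted p of 4.58e-04 in that test.

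Tpm1, the alpha tropomyosin of fast and heart muscle, was at 5461, 5371, 5746 and 6015 normalized CPM in controls 1 to 4 and at 3486, 4048, 4013 and 4845 in mutants 1 to 4. Mutant 4 had the most Tpm1 and Tpm2 of the mutants, yet stayed below every control in both. The log2 fold change of Tpm1 was -0.46 (SE 0.10, adjusted p = 0.00291 in edgeR's quasi-likelihood test). Tpm3, the slow-fibre tropomyosin, was at 2953, 2888, 3335 and 2804 in controls 1 to 4 and at 2327, 2394, 2658 and 2321 in mutants 1 to 4. The highest mutant and the lowest control were close, and the log2 fold change was -0.30 (SE 0.08, adjusted p = 0.00827 in edgeR's quasi-likelihood test). Relative to library size alone, Tpm3 was at -0.09 and did not pass the test (adjusted p = 0.286). Its copy Tpm3-rs7 was at a mean of 10.3 normalized CPM in controls and 9.56 in mutants.

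Tpm4, a tropomyosin of the cytoskeleton, was at 112.5, 150.5, 167.5 and 159.5 normalized CPM in controls 1 to 4 and at 163.0, 132.0, 149.5 and 164.6 in mutants 1 to 4. Control 1 was the lowest of all 8 mice, and the mutants otherwise lay within the control range. The log2 fold change was 0.05 (SE 0.12, adjusted p = 0.78 in edgeR's quasi-likelihood test), and its sign turned without control 1 (-0.07).

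Leaving out control 4, the mouse with the high Myh4, changed no call among the 6 genes that were lower. Their log2 fold changes were then -0.54 for Acta1, -0.44 for Tpm1, -0.63 for Tpm2, -0.34 for Tpm3, -0.81 for Acta2 and -0.91 for Actg2. The plot of changes by gene shows these 10 differences together with their values under other scalings.

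**Figure D2:**
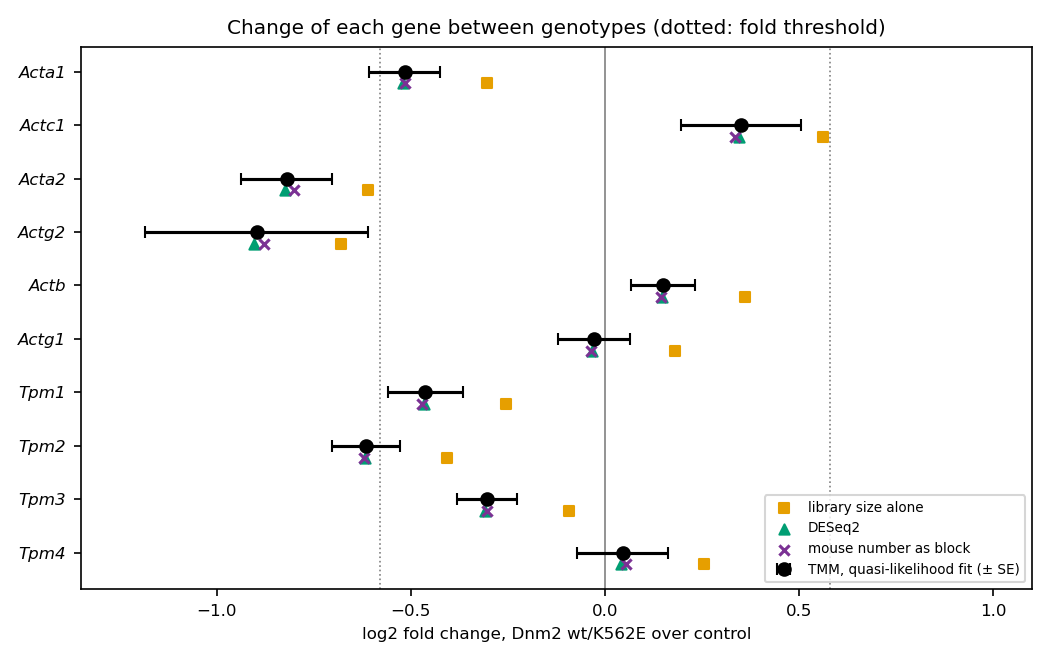
Log2 fold change (x axis) of each gene, Dnm2 wt/K562E over control, from the quasi-likelihood fit with TMM factors (black points, bars ± SE) and under 3 alternatives (coloured marks). Dotted lines mark 0.58 in either direction. Library size alone (squares) lies to the right of the other fits for all 10 genes.

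Summed fibre markers were lower beside the sarcomeric members. Those of muscle fibres in general were 32390 to 35049 normalized CPM in controls and 25407 to 29778 in mutants. Slow-fibre markers were at 0.601 and fast-fibre markers at 0.653 of the control mean, both without overlap, where Acta1 was at 0.699, Tpm2 at 0.653, Tpm1 at 0.725 and Tpm3 at 0.810 of the control level. At an adjusted p under 0.05 in edgeR's quasi-likelihood test, 4 of 5 slow-fibre genes and 4 of 6 fast-fibre genes were lower. The slow-fibre Casq2 (log2 fold change 0.32, adjusted p = 0.0513) and the fast-fibre Myh1 (-0.13, adjusted p = 0.257) and Mylpf (-0.07, adjusted p = 0.572) did not pass it. The markers of muscle fibres in general did not all go one way: Mb, myoglobin, overlapped between the genotypes (log2 fold change -0.14, adjusted p = 0.177), and Des, the intermediate filament protein desmin, was higher (log2 fold change 0.72, adjusted p = 1.46e-04 in edgeR's quasi-likelihood test). Their part in the levels of the members was not tested.

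Levels were also divided by the joined length of all annotated exons of a gene, from 1536 bases for Acta1 and 2909 for Tpm2 to 6085 for Tpm3 and 6485 for Tpm1. Where a muscle transcript is shorter than this length, its level comes out too low, so the order between genes is approximate. Per kilobase, the order in controls was Acta1 (15858 normalized CPM per kilobase), Tpm2 (2961), Tpm1 (871), Tpm3 (492), Actb (122.7), Actg1 (88.2), Acta2 (84.9), Tpm4 (67.0), Actc1 (17.6) and Actg2 (0.825). Actg1 and Acta2 overlapped between mice, as did Acta2 and Tpm4, and the other neighbours in this order did not. The first 6 genes kept their rank in the mutants. Tpm4 (59.9 to 74.7 normalized CPM per kilobase) and Acta2 (45.5 to 49.4) changed places there and no longer overlapped.

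Each gene's share of its family, computed from the counts per exon length of 1 mouse, does not depend on how the mice are scaled against each other. Acta1 made up 98.0%, 98.0%, 98.3% and 97.9% of the actin total in controls 1 to 4 and 97.0%, 97.7%, 97.3% and 97.6% in mutants 1 to 4. Every mutant was below every control, with a mean difference of -0.639 percentage points. The remainder was shared among 5 genes. Actb averaged 0.763% ± 0.0871 in controls and 1.20% ± 0.175 in mutants, Actg1 0.549% ± 0.0649 and 0.763% ± 0.118, and Actc1 0.109% ± 0.0127 and 0.196% ± 0.0324, all 3 with every mutant above every control. Acta2 averaged 0.524% and 0.425% and Actg2 0.0051% and 0.0039%, and both overlapped.

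Among the tropomyosins, Tpm2 made up 67.0%, 68.5%, 67.4% and 66.8% of the total in controls 1 to 4 and 62.6%, 64.4%, 63.5% and 64.3% in mutants 1 to 4. The mutants were lower without overlap, and the mean difference was -3.73 percentage points. Tpm4 was at 1.22%, 1.57%, 1.64% and 1.65% in controls and at 2.79%, 1.98%, 2.20% and 2.22% in mutants, again without overlap but in the other direction. The mean shares of Tpm1 (19.8% and 20.8%) and Tpm3 (11.2% and 13.2%) were higher in the mutants with overlapping mice. The shares themselves depend on the length used. In controls, Tpm2 averaged 67.4% by exon length, 56.4% by coding length and 49.5% by plain counts, and Tpm1 19.8%, 26.1% and 32.5%. Under each of these, Tpm2 was lower in the mutants without overlap. Shares of 1 total are tied to each other, so they are given as a description.

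**Figure D3:**
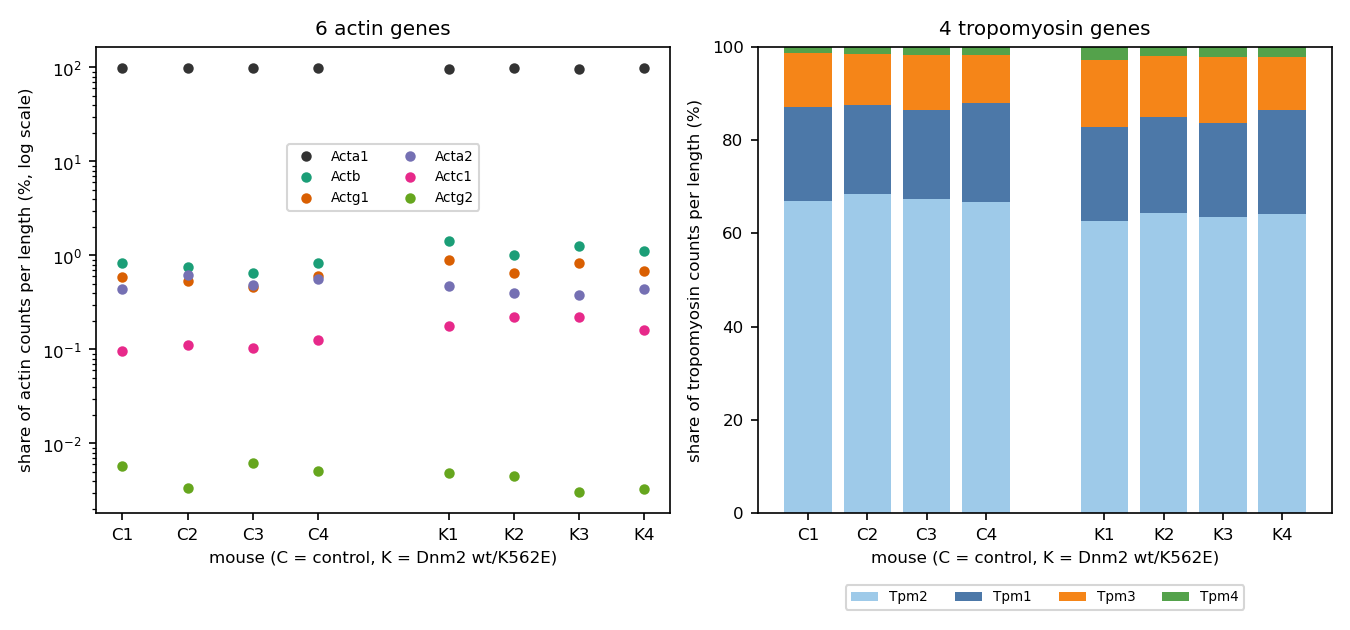
Share of each gene in its family's counts per exon length, in percent, for 4 control (C1 to C4) and 4 Dnm2 wt/K562E (K1 to K4) mice. Left, the 6 actin genes on a log axis, 1 point per mouse. Right, the 4 tropomyosin genes as stacked bars. Tpm2 takes 66.8% to 68.5% in controls and 62.6% to 64.4% in mutants.

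Ratios of 2 genes within a mouse asked whether the members changed by the same factor. For 8 ratios of raw counts, genotypes were compared with exact two-sided permutation tests, whose smallest possible p for 4 against 4 mice is 0.0286. Adjusted over the 8 ratios, this p became 0.0457 because several ratios reached it together. Each adjusted p thus depends on the other ratios, several of which share Acta1 or Tpm1. The log2 ratio of Actc1 to Acta1 was -9.91, -9.71, -9.83 and -9.53 in controls 1 to 4 and -9.01, -8.70, -8.69 and -9.18 in mutants 1 to 4. All mutants were above all controls, and cardiac relative to skeletal actin was 1.80 times the control value (difference in log2 ratio 0.85, exact p = 0.0286, adjusted p = 0.0457). Actb relative to Acta1 was higher in 4 of 4 mutants by 0.66, and Tpm4 relative to Tpm1 by 0.53, each at the same smallest p.

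Smaller differences also separated the genotypes. Actb relative to Actg1, the cytoplasmic pair, was 0.51, 0.48, 0.50 and 0.46 in controls 1 to 4 and 0.68, 0.67, 0.61 and 0.72 in mutants 1 to 4 on the log2 scale. The difference of 0.18 is small, but no mutant overlapped the controls (exact p = 0.0286, adjusted p = 0.0457). It compares a gene with no shared stretch of read length to one where 23.3% are shared. Of stretches of 31 bases, 23.6% of Actb and 40.2% of Actg1 are shared with other genes. Tpm2 relative to Tpm1 was lower in 4 of 4 mutants by 0.15 at the same p. The ratios of Acta2 to Acta1 (-0.28, exact p = 0.143, adjusted p = 0.19), Tpm3 to Tpm1 (0.17, exact p = 0.2, adjusted p = 0.229; 0.11 without control 4 and 0.27 without mutant 4) and Tpm1 to Acta1 (0.04, exact p = 0.743) did not pass the test. For Tpm1 to Acta1, mutant 4 lay above all other mice at -1.79, and without it the difference was -0.05.

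**Figure D4:**
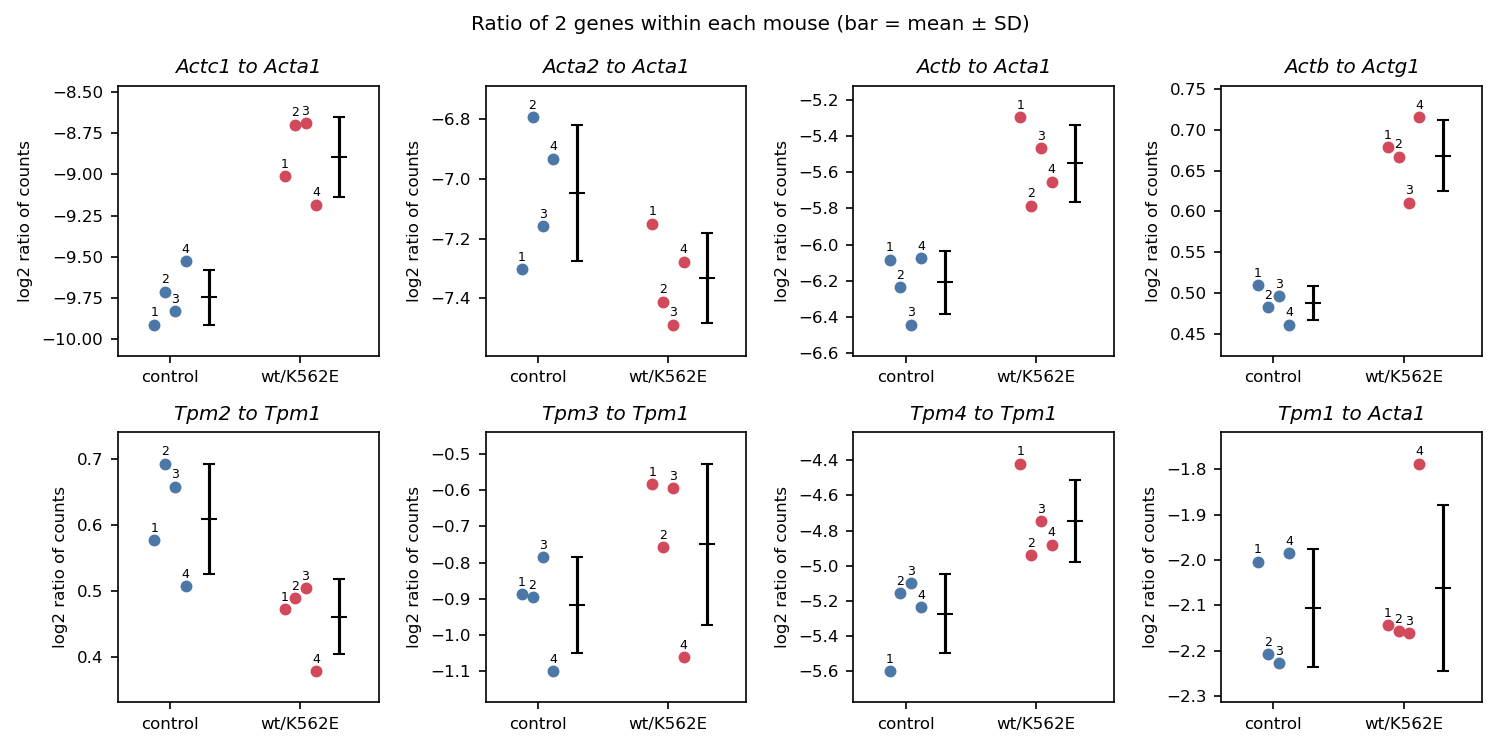
Log2 ratio of the raw counts of 2 genes within each mouse (y axis, a separate range for each ratio), for 4 control and 4 Dnm2 wt/K562E mice. Points are mice, numbered by mouse, and bars give the mean ± SD. Actc1 to Acta1, Actb to Acta1, Actb to Actg1 and Tpm4 to Tpm1 are higher and Tpm2 to Tpm1 is lower in every mutant.

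The partners of these proteins in the thin filament were described from lists of genes by role. The counts of each list stand beside the background already given, 12.9% of all genes higher and 7.85% lower past both thresholds, and 22.2% higher and 21.7% lower by adjusted p alone, and no test was run on a list. Of 8 troponin genes, whose proteins sit on tropomyosin and bind calcium, 4 passed both thresholds in the lower direction and 1 in the higher one, with a median log2 fold change of -0.58. The fast-fibre subunits Tnnc2, Tnni2 and Tnnt3 were at -0.69, -0.70 and -0.69, and Tnnc1, the slow and cardiac troponin C, was at -0.69 (adjusted p from 4.36e-05 to 2.62e-04 in edgeR's quasi-likelihood test). Tnnt2, the cardiac troponin T, which developing skeletal fibres also make, was the one in the other direction, at 7.03 ± 1.01 normalized CPM in controls and 38.3 ± 6.53 in mutants (log2 fold change 2.44, SE 0.14, adjusted p = 8.21e-07 in edgeR's quasi-likelihood test).

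A list of 9 genes for proteins at filament ends held capping proteins, tropomodulins and the leiomodins Lmod2 and Lmod3. Of these, 2 were higher and 1 lower past both thresholds, with a median of -0.04, and all 3 were tropomodulins. By adjusted p alone, 2 were higher and 4 lower, with both leiomodins among the latter. Tmod4, a tropomodulin that caps the pointed ends of thin filaments in skeletal muscle, was at 306.3 ± 15.2 normalized CPM in controls and 125.4 ± 5.78 in mutants (log2 fold change -1.29, SE 0.06, adjusted p = 2.81e-07 in edgeR's quasi-likelihood test). Its relatives Tmod2, known from neurons, and Tmod1, known from the heart and red cells, were higher at 1.29 (adjusted p = 2.50e-06) and 0.63 (adjusted p = 2.12e-04).

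Of 20 genes of monomer binding and turnover, 2 were higher past both thresholds (Coro1a, a leukocyte coronin, at 1.31, and Gsn, the severing protein gelsolin, at 0.74) and 0 lower, while at an adjusted p under 0.05 alone 11 were higher and 3 lower by edgeR's quasi-likelihood test. Of 22 nucleation and elongation genes, Diaph3, a formin, was higher past both thresholds (log2 fold change 1.15) and 0 were lower, with 8 higher and 2 lower by adjusted p alone. The medians were 0.25 and 0.12, and the shares past both thresholds did not exceed the 12.9% of all genes called higher. By adjusted p alone, the shares higher in both lists lay above the 22.2% of all genes, and the shares lower lay under the 21.7%. Summed macrophage markers were higher in every mutant, at 2.34 times the control mean, and their part in the levels of these genes was not tested.

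Of 13 crosslinkers and calponin family genes, 3 passed both thresholds. Lcp1, the plastin of blood cells, was higher (1.34), whereas Tagln and Cnn1, both known from smooth muscle, were lower at -0.67 and -0.70. By adjusted p alone, 5 were higher and 4 lower, and the median of the list was -0.10. Among the 7 genes of the SRF list, Fhl2, a cofactor found in heart and muscle, and Myocd, the smooth muscle and heart coactivator myocardin, were lower past both thresholds (-0.92 and -0.75) and 0 were higher. By adjusted p alone, 4 of the 7 were lower, and no further gene of the list reached an unadjusted p under 0.05 in edgeR's quasi-likelihood test. Of the 15 genes of the chaperonin that folds actin, with its helper prefoldin, 0 passed both thresholds, and by adjusted p alone 4 were lower and 0 higher, with a median of 0.01. These 4 were the prefoldin genes Pfdn1, Pfdn2, Vbp1 and Pfdn6, at -0.32, -0.20, -0.27 and -0.44, and no gene of the chaperonin itself passed. At an unadjusted p under 0.05 in edgeR's quasi-likelihood test, 5 were lower and 1 was higher.

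**Figure D5:**
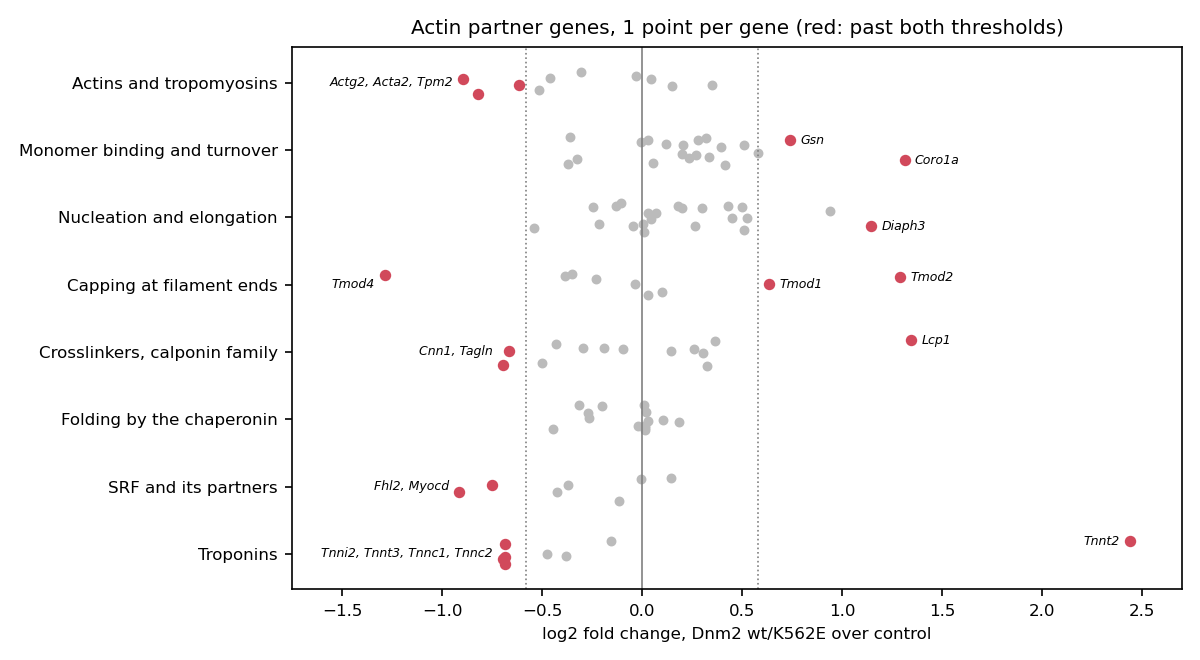
Log2 fold change (x axis), Dnm2 wt/K562E over control, of the 10 actin and tropomyosin genes and of 7 lists of partner genes, 1 point per tested gene. Red points passed both thresholds and are named, dotted lines mark 0.58 in either direction, and vertical scatter within a list has no meaning. Tnnt2 at 2.44 and Tmod4 at -1.29 are the outermost points.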

How the data were processed

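RNA-seq counts of soleus from 4 control and 4 Dnm2 wt/K562E mice were used, grouped by genotype as in the labels. The authors trimmed reads with Trimmomatic 0.33, aligned them to GRCm38.p5 with STAR 2.5.1b and deposited whole-number counts per Ensembl gene from featureCounts, without normalization. Reads with a mapping quality under 10 were left out, reads over several genes counted for each, and multi-mapping reads counted at their primary alignment, which bears on genes with near-identical copies. The strand setting is not given in the sources used here, and the labels (stranded total RNA) and the methods (poly A) name different library kits.

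Symbols, positions and exon lengths came from GENCODE M21 (22647 IDs matched). Low counts were removed by filterByExpr (edgeR 4.0.16, at its minimum count of 10 and minimum total of 15), and 14001 genes were fitted with TMM factors and the quasi-likelihood F-test in R 4.3.3, with Benjamini-Hochberg adjustment over all of them. Controls had TMM factors of 0.9145 to 0.9594 and mutants of 1.037 to 1.103. Thresholds were the study's, 0.05 for the adjusted p and 0.58 for the absolute log2 fold change. The SE was derived from the F statistic. Log2 ratios used counts plus 0.5, and exact tests used scipy 1.17.1. Alternatives were edgeR's exact test, DESeq2 1.42.0, other scalings and filters, both numberings of the mice as a block, other lengths, another pseudocount and leaving out each mouse. The fit was tested on simulated data. There, 98 fitted genes had a true absolute log2 fold change of 0.58 and 98 had 1.5. At an adjusted p under 0.05 the fit recovered 47.96% of the former and 90.82% of the latter. Of 146 calls, 10 were false, so a gene that did not pass may still differ. In the mice, 3103 genes were higher and 3036 lower at that threshold, and each adjusted p depends on the other genes. Recovery with that many calls was not tested. Same-numbered mice are different animals. All 10 genes, Dnm2, up to 4 genes per partner list (smallest p of those past both thresholds) and summed markers are reported by rule. Tnnc1, Myh4, Myh11, Des, Mb, Casq2, Myh1, Mylpf, Tpm3-rs7, Lmod2, Lmod3, the prefoldin genes and single pericyte and heart markers are named in addition, after their values were seen. The members and lists were chosen with earlier results of these data known.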

Additional observations from a re-analysis of the deposited data

Results flagged for a closer look

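Of 56 sets of 4 mice checked (levels, shares and ratios of the 10 genes in each genotype), 1 held a mouse far from the others. The log2 ratio of Tpm1 to Acta1 was -1.787 in mutant 4 and between -2.16 and -2.14 in the other 3 mutants, so the gap took 0.951 of the range, above the critical value of Dixon's criterion. Chance alone marks about 1 in 20 such sets. Without mutant 4, the difference between the genotypes in this ratio was -0.05 in place of 0.04.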

How the results depend on the processing

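Acta1, Acta2, Tpm1 and Tpm2 kept their direction and an adjusted p under 0.05 in every alternative run. With library size alone, 1 member (Acta2) was called lower, and Actc1 (0.56, adjusted p = 0.0157) and Actb (0.36, adjusted p = 0.00647) passed the test in edgeR, while Actg2 (-0.68, adjusted p = 0.0747) and Tpm3 (-0.092, adjusted p = 0.286) did not. The sign of Actg1 turned (0.18), and 2865 genes were called higher and 564 lower. With this scaling, the median of all genes stood at 0.22. Without the fold threshold, 6 members, 3103 higher and 3036 lower genes were called. Leaving out single mice gave 2 to 3 members called lower, 1588 to 1970 genes called higher and 1026 to 1208 called lower. It gave log2 fold changes of -1.05 to -0.73 for Actg2, 0.25 to 0.45 for Actc1, 0.094 to 0.197 for Actb (lowest without mutant 3), -0.106 to 0.0269 for Actg1 (turning to 0.0088, 0.0195 and 0.0269 without control 4, mutant 2 and mutant 4) and -0.073 to 0.11 for Tpm4, and the cause was not tested.

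The mouse numbers do not pair animals (mean correlation of deviations -0.114 by titles and -0.0302 by descriptions). With the replicate block of the titles, Actg2 was at -0.88 (adjusted p = 0.0853), 2 members were called lower, and no other member changed its side of the threshold. Pairing the mice cannot change the mean differences of the within-mouse ratios (Actc1 to Acta1 0.85, Actb to Acta1 0.66, Actb to Actg1 0.18, Tpm2 to Tpm1 -0.15, Tpm4 to Tpm1 0.53), and 4 pairs allow no exact p below 0.125. Leaving out 1 mouse allows none below 0.0571, with ranges of 0.78 to 0.94, 0.57 to 0.74, 0.16 to 0.20, -0.18 to -0.12 and 0.42 to 0.59 in the same order, -0.048 to 0.084 for Tpm1 to Acta1, 0.107 to 0.272 for Tpm3 to Tpm1 and -0.37 to -0.20 for Acta2 to Acta1. Without division by length, the differences in share were -1.05 percentage points for Acta1, 0.746 for Actb, 0.36 for Actg1 and 0.402 for Tpm4, and with coding length -1.0002 for Acta1 and 0.746 for Actb. Depth limits Actg2 most, with 21 to 76 counts per mouse.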
